A study of Mus musculus with 6 samples.

Results

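The B cell receptor and coreceptor genes Cd79a, Cd79b, Ms4a1, Cr2, Fcer2a, Cd22, Cd72 and Fcmr were followed through 6 single-cell RNA libraries of mouse lung. They are 8 of the 32285 genes counted and were chosen by symbol. Their unique molecular identifiers (UMIs, each marking 1 captured RNA molecule) were summed in every library over B cells. A cell counted as a B cell if it had at least 3 UMIs of Cd79a, Cd79b and Ms4a1 together and at most 1 UMI of Cd3d, Cd3e and Cd3g. That gave 10086 B cells of 61736 cells kept for having 200 or more detected genes and no more than 10% of their UMIs from mitochondrial genes. A B cell receptor is a membrane immunoglobulin held by the CD79A and CD79B chains, whose cytoplasmic tails carry the signal inward. The complement receptor CD21 (Cr2) is part of the coreceptor that lowers the threshold for that signal, while CD22 and CD72 carry inhibitory motifs that recruit the phosphatase SHP-1. CD20 (Ms4a1), the low-affinity IgE receptor CD23 (Fcer2a) and the IgM Fc receptor (Fcmr) mark mature B cells, and CD21 and CD23 separate follicular from marginal zone B cells in the spleen.

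The libraries came from NOS1 KO mice given LPS (2 libraries), wild-type mice given LPS (2), NOS1 KO mice given vehicle (1) and wild-type mice given vehicle (1). The strain of the wild type is written C65BL6 in the design text. LPS, the endotoxin of Gram-negative bacteria, was injected intraperitoneally at 10 mg/kg, and lungs were taken 4 h later. In every group the lungs were digested with Liberase and DNase, red cells were lysed, and CD45+ cells, the leukocytes, were selected with magnetic particles. The kind of allele, whether it acts in all cells, the age of the mice and the number of animals per library are not given in the sources used here. Nothing says that libraries of a group came from separate animals, so p-values measure the spread between libraries, which may be technical. Each vehicle group has 1 library and was assumed to vary like the LPS groups. Nos1 itself had 4 and 4 UMIs in the KO LPS libraries, 0 and 1 in the WT LPS libraries, 5 in the KO vehicle library and 2 in the WT vehicle library over all passing cells, which is too few to check the genotype.

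The libraries held 54032509 to 114649087 UMIs in 8384 to 12069 passing cells, and any 2 of them shared 20 to 35 cell barcodes. B cells numbered 1732 and 1255 in the KO LPS libraries, 921 and 988 in the WT LPS libraries, 2242 in the KO vehicle library and 2948 in the WT vehicle library. Of these, 97.9% to 99.5% also had at least 3 UMIs of 8 other B cell genes, among them Pax5, Ebf1, Bank1 and Ighd. At the edge of the rule, cells with 3 such UMIs numbered 22 to 93 a library, and 94.0% and 93.3% of them in KO LPS, 90.1% and 92.5% in WT LPS, 77.3% in KO vehicle and 80.6% in WT vehicle had at least 3 UMIs of those 8 genes. Among the 45 to 104 cells a library with 2 such UMIs, left out by the rule, the shares were 72.2% and 75.6% in KO LPS, 78.3% and 81.7% in WT LPS, 25% in KO vehicle and 39.1% in WT vehicle.

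The median depth of B cells was 3494 and 2606 UMIs in KO LPS, 5701 and 4187 in WT LPS, 2925 in KO vehicle and 2093 in WT vehicle, highest in both WT LPS libraries. The median share of mitochondrial UMIs per B cell, a sign of RNA quality, was 3.94% and 4.30% in KO LPS, 2.39% and 3.08% in WT LPS, 4.89% in KO vehicle and 4.95% in WT vehicle. Many B cell barcodes also carried RNA of other cells: all 8 markers of the neutrophil list were detected in every library, and summed to 20880 to 27248 CPM (UMIs per 1000000 UMIs of the library's B cells) under LPS, against 743 to 1461 CPM under vehicle. Values are therefore also given for 6092 B cells with fewer than 2 detected markers of any other class, called unmixed cells here, in which the neutrophil gene S100a8 was at 435 and 223 CPM in KO LPS, 363 and 348 CPM in WT LPS, 23.8 CPM in KO vehicle and 30.8 CPM in WT vehicle. Sex marks differed between libraries. Among unmixed cells, 62.6% and 60.4% in KO LPS, 75.3% and 73.2% in WT LPS, 77.9% in KO vehicle and 0.0506% in WT vehicle had Xist and no Y-linked UMI, while 5.05% and 5.49% in KO LPS and 31.9% in WT vehicle had Y-linked UMIs and no Xist. Sex and treatment cannot be told apart in the WT libraries.

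Genes were placed on GRCm38 with GENCODE M21. Cd79a lies at chr7:24897381-24902197 (plus strand), Cd79b at chr11:106311341-106314762 (minus), Ms4a1 at chr19:11249675-11266241 (minus) and Cr2 at chr1:195136811-195176716 (minus). Fcer2a lies at chr8:3681737-3694175 (minus), Cd22 at chr7:30865402-30880342 (minus), Cd72 at chr4:43446462-43454628 (minus) and Fcmr at chr1:130865669-130880791 (plus). All 8 are protein-coding and none overlaps another gene on its own strand. Genes on the opposite strand overlap Ms4a1 (4930526L06Rik), Cd22 (Gm29439) and Cd72 (Tesk1), and no source used here says whether counting used strand.

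RefSeq promoter entries on GRCm38.p6 matched 6 of the 8 genes, all but Cd79b and Ms4a1. The 250 bases before the RefSeq start, 5′ to 3′, are shown for the 3 genes with the largest changes under LPS. Those of Cd72, the member that moved least in all B cells, are also shown. RefSeq and GENCODE starts can differ. The windows of Fcmr and Cd79a run into the genes as placed above. Those of Cd22 and of the Fcer2a entries not shown lie within the genes. Fcer2a has 3 entries and the one at the 5′ end of the gene is shown. Capitals mark matches to the motifs searched on both strands.

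Cr2, chr1:195176720-195176969, minus strand: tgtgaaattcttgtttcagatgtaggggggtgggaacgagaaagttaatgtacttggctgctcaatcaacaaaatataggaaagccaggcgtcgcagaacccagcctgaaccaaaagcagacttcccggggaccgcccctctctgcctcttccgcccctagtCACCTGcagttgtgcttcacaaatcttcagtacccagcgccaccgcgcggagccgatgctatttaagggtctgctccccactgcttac

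Fcer2a, chr8:3694175-3694424, minus strand: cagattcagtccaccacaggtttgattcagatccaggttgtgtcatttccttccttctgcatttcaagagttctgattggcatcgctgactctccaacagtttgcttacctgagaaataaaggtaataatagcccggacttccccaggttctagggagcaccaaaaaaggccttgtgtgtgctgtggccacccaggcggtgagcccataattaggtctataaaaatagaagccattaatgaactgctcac

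Fcmr, chr1:130865527-130865776, plus strand: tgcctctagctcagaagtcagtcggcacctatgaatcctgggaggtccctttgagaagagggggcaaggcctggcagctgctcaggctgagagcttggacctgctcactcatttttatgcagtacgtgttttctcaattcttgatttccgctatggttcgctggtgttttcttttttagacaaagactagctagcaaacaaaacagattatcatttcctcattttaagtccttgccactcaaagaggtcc

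Cd72, chr4:43454627-43454876, minus strand: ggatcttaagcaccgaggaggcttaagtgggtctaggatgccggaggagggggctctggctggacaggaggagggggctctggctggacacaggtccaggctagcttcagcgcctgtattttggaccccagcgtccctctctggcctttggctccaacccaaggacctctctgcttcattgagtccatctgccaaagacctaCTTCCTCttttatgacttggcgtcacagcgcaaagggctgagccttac

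The motifs were the octamer ATGCAAAT, found in 1.60% of 32851 promoters over the same length, the E box CAGGTG (17.2%), the Ebf type CCCNNGGG (11.8%), the Ets type GAGGAAG (10.6%) and the kB type GGGNNTTCC (4.98%). Cr2 held CACCTG, the E box read on the other strand, at -88 to -83 from the start, and Cd72 held CTTCCTC, the Ets type on the other strand, at -48 to -42. No match to any of the 5 motifs was found in the windows of Fcmr and of the Fcer2a entry shown. Of the entries not shown, another of Fcer2a held the E box at -244 to -239 and at -99 to -94, that of Cd79a held an E box at -154 to -149, and that of Cd22 held an E box at -245 to -240 and CCCTGGGG, of the Ebf type, at -48 to -41.

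Cd79a and Cd79b, the signalling chains of the receptor, fell together under LPS, and as CPM more so in the WT than in the KO libraries. Because these genes and Ms4a1 choose the cells, they were tested in cells selected without them, those with at least 3 UMIs of the 8 other B cell genes (11014 cells). Of these, 88.3% and 89.6% in KO LPS and 81.2% and 78.5% in WT LPS also met the members' rule. In KO vehicle 95.1% did and in WT vehicle 97.3%. Markers of endothelial cells summed to more in this selection than under the members' rule, 527 against 97.5 CPM in KO LPS library 1 and 482 against 327 CPM in WT vehicle. Its make-up thus differed between groups, and the part of this in the tests was not tested. In this selection Cd79a was at 953 and 1021 CPM in KO LPS, 487 and 530 CPM in WT LPS, 2245 CPM in KO vehicle and 2362 CPM in WT vehicle. All 4 LPS libraries were below both vehicle libraries, and the WT LPS libraries were the lowest without overlapping the KO LPS libraries. Cd79b was at 558 and 597 CPM in KO LPS, 292 and 333 CPM in WT LPS, 1200.4 CPM in KO vehicle and 1303 CPM in WT vehicle, in the same order of groups. In edgeR's quasi-likelihood test over all genes, LPS against vehicle gave a log2 change of -1.40 ± 0.07 (SE) for Cd79a (adjusted p = 5.8e-07) and -1.25 ± 0.07 for Cd79b (adjusted p = 1.8e-06). In the unmixed cells the changes were -1.07 and -0.89. As UMIs per cell in all cells selected without the members, LPS to vehicle ratios were 0.545 in KO and 0.501 in WT for Cd79a. For Cd79b they were 0.597 in KO and 0.556 in WT. In unmixed cells selected without the members the ratios were also lower in WT. They were 0.651 in KO and 0.599 in WT for Cd79a, and 0.725 and 0.687 for Cd79b. In unmixed cells of the members' rule, which these genes choose, the ratios were no lower in WT. There they were 0.676 in KO and 0.681 in WT for Cd79a, and 0.755 and 0.792 for Cd79b. In the cells selected by the genes themselves, given as a description only, Cd79a was at 1175 and 1249 CPM in KO LPS, 624 and 670.3 CPM in WT LPS, 2496 CPM in KO vehicle and 2469 CPM in WT vehicle.

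Ms4a1, which encodes the membrane protein CD20, changed less. In the cells selected without it, Ms4a1 was at 452 and 466 CPM in KO LPS, 282 and 332 CPM in WT LPS, 709.6 CPM in KO vehicle and 657 CPM in WT vehicle. All LPS libraries were below both vehicle libraries, with a log2 change of -0.56 ± 0.08 (SE, edgeR adjusted p = 0.0003). The change in the unmixed cells was -0.16 and was not past the threshold (edgeR adjusted p = 0.062). With every cell thinned to 1500 UMIs before it was selected, it was 0.07 (adjusted p = 0.51).

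**Figure D1:**
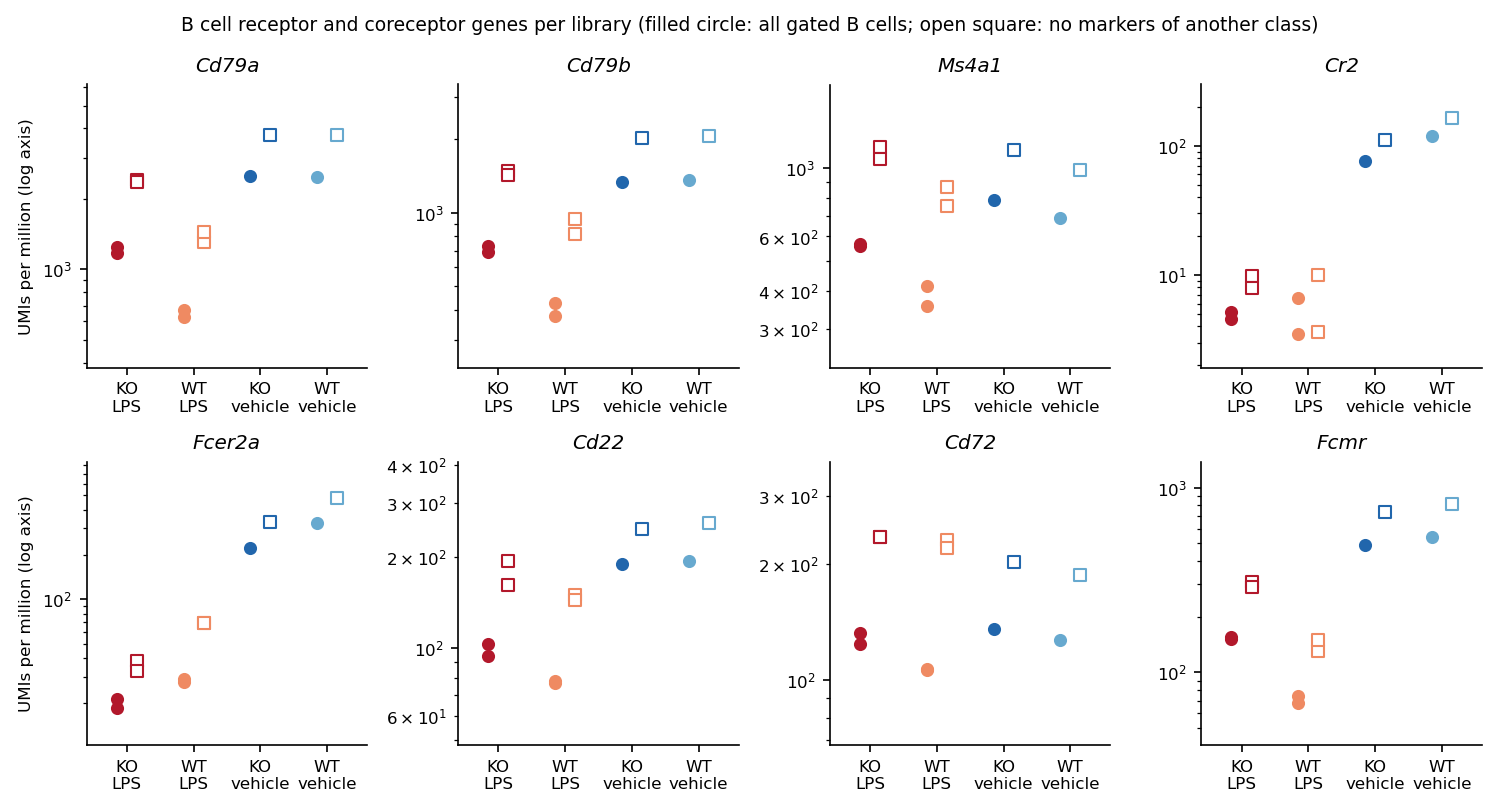
Level of each of the 8 genes in B cells, in CPM on a log axis, with 1 point per library, for all B cells of the members' rule (filled circles) and for those without markers of another class (open squares). Cr2 and Fcer2a show the widest gap between the 4 LPS and the 2 vehicle libraries, and Cd72 the narrowest among the filled circles. Among the open squares Ms4a1 overlaps between LPS and vehicle libraries.

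Cr2 and Fcer2a were lowest relative to vehicle. Cr2 was at 5.2 and 4.53 CPM in KO LPS, 6.59 and 3.48 CPM in WT LPS, 76.1 CPM in KO vehicle and 118 CPM in WT vehicle. These levels rest on 66 and 29 UMIs in KO LPS, 65 and 28 in WT LPS, 885 in KO vehicle and 1435 in WT vehicle. KO and WT libraries overlapped under LPS, and every LPS library was far below both vehicle libraries. The log2 change under LPS was -3.90 ± 0.15 (SE, edgeR adjusted p = 1.2e-08), and it stayed between -4.23 and -3.49 under the 20 alternatives tried.

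Fcer2a, the IgE receptor CD23, was at 21.2 and 18.4 CPM in KO LPS, 27.8 and 29.2 CPM in WT LPS, 221 CPM in KO vehicle and 325 CPM in WT vehicle. The groups did not overlap, and the KO library or libraries were the lower ones under both treatments. The log2 change under LPS was -3.15 ± 0.06 (SE, edgeR adjusted p = 1.9e-10), between -3.49 and -2.50 under the 20 alternatives. In the unmixed cells Fcer2a was at 38.4 and 32.9 CPM in KO LPS, 69.5 and 69.2 CPM in WT LPS, 329.7 CPM in KO vehicle and 477 CPM in WT vehicle, which kept the same order.

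Fcmr, the receptor for the Fc part of IgM, was at 152 and 155 CPM in KO LPS, 68.5 and 74.3 CPM in WT LPS, 491 CPM in KO vehicle and 539 CPM in WT vehicle. The vehicle libraries were the highest and the WT LPS libraries the lowest, with no overlap between groups. Under LPS the log2 change was -1.96 ± 0.06 (SE, edgeR adjusted p = 3.5e-09), and in the unmixed cells it was -1.83.

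The inhibitory receptors differed from each other. Cd22, a sialic acid-binding lectin, was at 104 and 94.3 CPM in KO LPS, 76.6 and 78.1 CPM in WT LPS, 190.1 CPM in KO vehicle and 194 CPM in WT vehicle. All LPS libraries lay below both vehicle libraries, with a log2 change of -0.80 ± 0.06 (SE, edgeR adjusted p = 1.1e-06). Cd72, a C-type lectin-like receptor, was at 124 and 132 CPM in KO LPS, 107 and 106 CPM in WT LPS, 136 CPM in KO vehicle and 127 CPM in WT vehicle. Here the KO LPS range overlapped the vehicle values and the WT LPS libraries were the lowest in CPM. After TMM scaling, which moves library factors by the bulk of the genes, the log2 change of Cd72 under LPS was 0.16 ± 0.06 (SE, edgeR adjusted p = 0.034). With library totals only it was -0.17, and with DESeq2 0.19 (adjusted p = 0.14), so neither the direction nor the call of Cd72 held under every scaling. The call also ended when either WT LPS library or either vehicle library was left out (edgeR adjusted p = 0.069 to 0.14). In unmixed cells Cd72 was at 235 and 235 CPM in KO LPS, 229.7 and 219 CPM in WT LPS, 202 CPM in KO vehicle and 187 CPM in WT vehicle, higher in every LPS library, with a log2 change of 0.33 (edgeR adjusted p = 0.00066).

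Of the 5 members that did not choose the cells, all 5 passed the test for LPS, 4 of them lower. Among the 13801 genes tested in the same cells 66.7% passed in either direction and 33.7% were lower, with 4553 genes higher and 4647 lower and a median log2 change of -0.05. All 3 of the members tested in the other selection passed, against 66.7% of 14470 genes there. A called member is therefore near the background, and the sizes are given beside the calls: the median log2 change was -1.32 over the 8 members. The split of all genes moved with the scaling. Library totals alone gave 3129 genes higher and 6794 lower with a median of -0.38, DESeq2 gave 3673 higher and 2577 lower, and scaling to the number of B cells gave 3337 higher and 1057 lower with a median of 0.35.

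Within each genotype 4 of the 5 members and all 3 of the others were lower under LPS, and Cd72 did not pass. In KO, 46.5% of genes passed in either direction in the members' cells and 47.9% in the other selection, and 20.8% and 22.4% were lower. In WT 60.4% and 59.5% passed in either direction, and 30.4% and 29.6% were lower. The log2 change was -0.95 in KO and -1.85 in WT for Cd79a, -0.82 in KO and -1.69 in WT for Cd79b, -0.39 in KO and -0.73 in WT for Ms4a1, and -3.69 in KO and -4.10 in WT for Cr2. For Fcer2a they were -3.21 in KO and -3.10 in WT, for Cd22 -0.69 in KO and -0.91 in WT, and for Fcmr -1.42 in KO and -2.50 in WT. Each of these sets 2 LPS libraries against 1 vehicle library. Ms4a1 did not pass in KO in unmixed cells (-0.01, edgeR adjusted p = 0.96) or without KO LPS library 1 (-0.35, adjusted p = 0.1). In cells thinned to 1500 UMIs, Cd79b (-0.12, adjusted p = 0.5) and Cd22 (-0.24, 0.22) did not pass in KO, and Ms4a1 (-0.06, 0.74) and Cd22 (-0.39, 0.055) did not pass in WT. On a scale of UMIs per B cell the calls for Cr2 and Fcer2a held in both genotypes and that for Fcmr in WT, while Fcmr in KO was at -1.42 (adjusted p = 0.074) and Cd79a, Cd79b, Ms4a1 and Cd22 passed in neither.

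**Figure D2:**
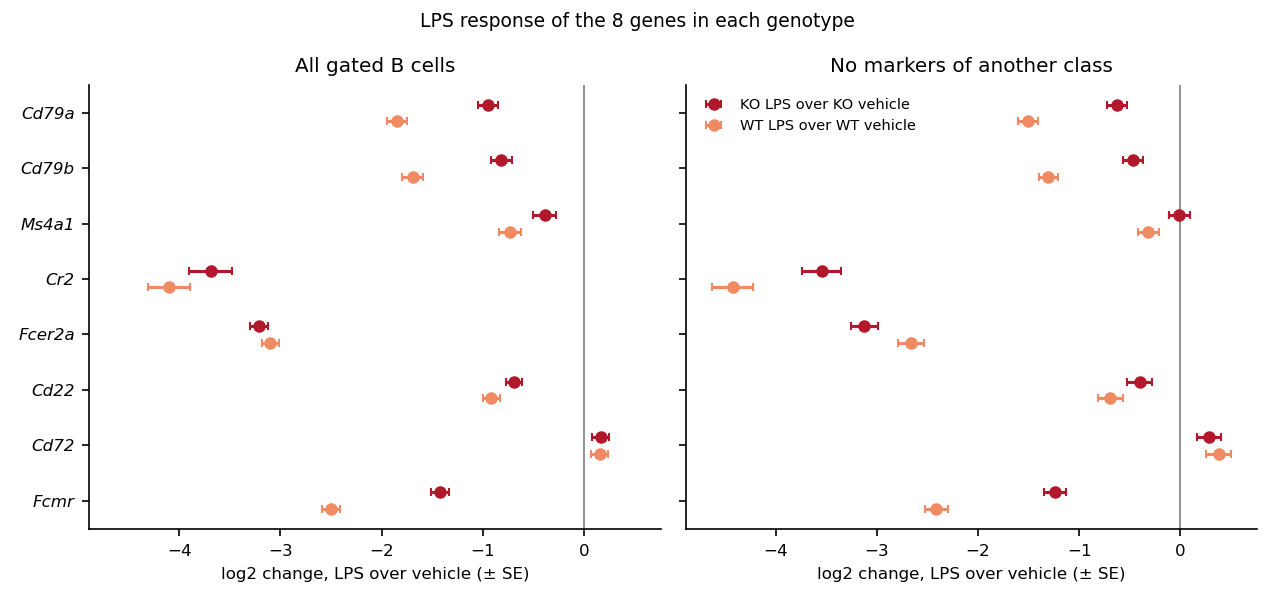
Log2 change under LPS against vehicle in each genotype (points, bars are SE of the fit), for all B cells on the left and for those without markers of another class on the right; Cd79a, Cd79b and Ms4a1 come from cells selected without them. Cd79a, Cd79b and Fcmr sit further left in WT than in KO, while the points of Fcer2a, Cd22 and Cd72 lie close together in the left panel.

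The response to LPS differed between the genotypes for 3 members. The interaction term, the change in KO minus the change in WT, was 0.90 ± 0.14 (SE, edgeR adjusted p = 0.013) for Cd79a, 0.87 ± 0.15 (adjusted p = 0.018) for Cd79b and 1.08 ± 0.13 (adjusted p = 0.003) for Fcmr. That is 1 of the 5 members, where 9.61% of genes passed, and 2 of the 3 tested in the other selection, where 7.68% did. For the remaining 5 members the term was 0.34 for Ms4a1 (adjusted p = 0.24), 0.41 for Cr2 (0.48), -0.11 for Fcer2a (0.65), 0.23 for Cd22 (0.26) and 0.01 for Cd72 (0.99). The calls for Cd79a and Cd79b ended when cells were thinned to 1500 UMIs (0.54 and 0.49, adjusted p = 0.078 and 0.12 in edgeR), while Fcmr remained (1.04, adjusted p = 0.016). The call for Cd79b also ended without KO LPS library 1 (0.93, adjusted p = 0.063), and that for Fcmr without WT LPS library 1 (0.99, adjusted p = 0.066). On a scale of UMIs per B cell all 3 calls ended, at 0.12 for Cd79a, 0.10 for Cd79b and 0.31 for Fcmr (adjusted p = 0.95, 0.96 and 0.86 in edgeR).

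Under LPS, KO B cells had more Cd79a, Cd79b, Ms4a1 and Fcmr and less Fcer2a, as CPM, than WT B cells. The log2 differences were 0.79 ± 0.08 (SE, edgeR adjusted p = 0.00069) for Cd79a, 0.72 ± 0.09 (0.0013) for Cd79b, 0.41 ± 0.09 (0.012) for Ms4a1, 0.96 ± 0.08 (8.7e-05) for Fcmr and -0.65 ± 0.09 (0.00079) for Fcer2a. Cr2 (-0.21), Cd22 (0.21, adjusted p = 0.052) and Cd72 (0.11) did not pass, and Cd22 passed under 6 of 21 alternatives, among them library totals only (0.36) and the fits without KO LPS library 2, KO vehicle or WT vehicle (0.24, 0.21 and 0.21). So 2 of the 5 members passed where 27.1% of genes did, and 3 of the 3 tested in the other selection where 26.8% did. Over all genes 1745 were higher and 2000 lower, 2900 and 1177 with library totals only, 664 and 1209 with DESeq2, and 11 and 79 on the scale of UMIs per cell. Leaving out KO LPS library 1, KO LPS library 2 or WT LPS library 1 ended the call for Ms4a1 (adjusted p = 0.069, 0.051 and 0.11 in edgeR).

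In unmixed cells the 5 calls held and the difference of Fcer2a was wider, at -1.06 ± 0.14 (SE, edgeR adjusted p = 3.9e-08). In cells thinned to 1500 UMIs the call for Fcer2a ended (-0.59, adjusted p = 0.22) and the other 4 held. Depth and mitochondrial share moved with these differences, with a median of 3494 and 2606 UMIs per cell in KO LPS and 5701 and 4187 in WT LPS, and the lower mitochondrial shares in WT LPS; their part in them was not tested. When values were scaled to the number of B cells none of the 5 calls held: Cd79a was at 0.44 (edgeR adjusted p = 0.78), Cd79b at 0.37 (0.83), Ms4a1 at 0.07 (0.96), Fcmr at 0.51 (0.61) and Fcer2a at -1.10 (0.31). On that scale in unmixed cells Fcer2a passed (-1.42, adjusted p = 0.014) and the others did not. The genotype differences of Cd79a, Cd79b, Ms4a1 and Fcmr are therefore reported as differences in their share of the captured RNA. None of the 4 passed as a difference in UMIs per cell. Scaled to the number of B cells, only 90 genes passed among all B cells. A missing call on that scale therefore does not show equal levels per cell.

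Because the KO LPS libraries held cells with Y-linked UMIs and the WT LPS libraries almost none, the genes were also read in unmixed cells with Xist and no Y-linked UMI. In these cells Cd79a was at 2335 and 2264 CPM in KO LPS, against 1184 and 1291 CPM in WT LPS. Fcer2a was at 35.1 and 29.2 CPM in KO LPS, against 72.5 and 66.7 CPM in WT LPS. Fcmr was at 250.4 and 211 CPM in KO LPS, against 120.5 and 149.8 CPM in WT LPS. The genotypes did not overlap for these genes among Xist-marked cells. In unmixed cells with neither mark they did not overlap either, but the gap for Cd79a was narrower. There Cd79a was at 2556 and 2557 CPM in KO LPS, against 1794 and 2026 CPM in WT LPS. Fcer2a was at 42.3 and 43.9 CPM in KO LPS, against 57.5 and 78.9 CPM in WT LPS. Fcmr was at 407 and 380 CPM in KO LPS, against 172 and 150 CPM in WT LPS. The 50 and 46 KO LPS cells with only Y-linked UMIs had more Fcmr, 556 and 725 CPM, than the Xist-marked KO LPS cells. All B cells with a Y-linked UMI, 280 and 167 cells, were then left out of the KO LPS libraries. Most of these were mixed barcodes: among unmixed cells 50 and 46 had only Y-linked UMIs and 9 and 3 had both marks. The WT LPS libraries kept their mixed barcodes, and cells with neither mark stayed in. This fit therefore differs in more than sex marks. In it the log2 differences between KO and WT under LPS were 1.16 for Cd79a, 1.19 for Fcmr and -0.36 for Fcer2a (edgeR adjusted p = 0.023 for Fcer2a). Cd22 (0.49) and Cd72 (0.47) also passed.

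Between the vehicle libraries, with 1 library a side, no test was made and intervals cover counting error only (exact 95% Poisson). Cr2 was at 76.1 CPM (71.2 to 81.3) in KO vehicle and 118 CPM (112 to 125) in WT vehicle, and Fcer2a at 221 CPM (213 to 229.9) in KO vehicle and 325 CPM (315 to 336) in WT vehicle. For these genes the KO level was 0.644 and 0.680 of the WT level. The other 6 members differed less, with KO to WT ratios from 0.910 for Fcmr (491 CPM, 478 to 504, in KO and 539 CPM, 526 to 553, in WT) to 1.15 for Ms4a1. These vehicle libraries also differ in sex marks, and genotype and sex cannot be told apart between them.

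Levels were also read as UMIs per cell, which do not depend on how many B cells a library held. Unmixed B cells had 7.87 and 6.06 UMIs of Cd79a per cell in KO LPS, 6.05 and 5.10 in WT LPS, 10.3 in KO vehicle and 8.18 in WT vehicle. All LPS libraries were below both vehicle libraries, which is a description, since Cd79a helped to choose these cells. Fcmr was at 1.01 and 0.746 UMIs per cell in KO LPS, 0.607 and 0.528 in WT LPS, 2.05 in KO vehicle and 1.77 in WT vehicle, again without overlap between treatments. Fcer2a was at 0.125 and 0.0847 UMIs per cell in KO LPS, 0.322 and 0.244 in WT LPS, 0.911 in KO vehicle and 1.04 in WT vehicle. On this scale over all B cells, the LPS change passed for Cr2 (-3.49), Fcer2a (-2.76), Fcmr (-1.57) and Cd79a (-0.94, edgeR adjusted p = 0.041), and did not pass for Cd79b (-0.80, adjusted p = 0.1), Ms4a1 (-0.10), Cd22 (-0.40) or Cd72 (0.56). Here the changes of Cd79a, Cd79b and Ms4a1 come from all cells selected without them.

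At an equal depth of 1500 UMIs per cell, the share of unmixed B cells with at least 1 UMI of Cd79a was 92.8% and 91.0% in KO LPS, 70.6% and 75.4% in WT LPS, 99.3% in KO vehicle and 99.5% in WT vehicle. These shares are a description, since Cd79a helped to choose the cells. For Cr2 the share was 1.59% and 0.97% in KO LPS, 1.17% and 0.77% in WT LPS, 14.9% in KO vehicle and 21.8% in WT vehicle. For Fcer2a it was 3.39% and 4.28% in KO LPS, 7.69% and 8.51% in WT LPS, 36.2% in KO vehicle and 48.6% in WT vehicle. For both genes every LPS library was lower than both vehicle libraries. For Fcmr it was 32.4% and 30.7% in KO LPS, 16.8% and 18.6% in WT LPS, 60.8% in KO vehicle and 63.9% in WT vehicle, and for Cd72 23.7% to 26.8% over all 6 libraries. In T cells, which should lack these genes, the thinned share of cells with a Cr2, Fcer2a or Fcmr UMI was at most 0.492%.

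**Figure D3:**
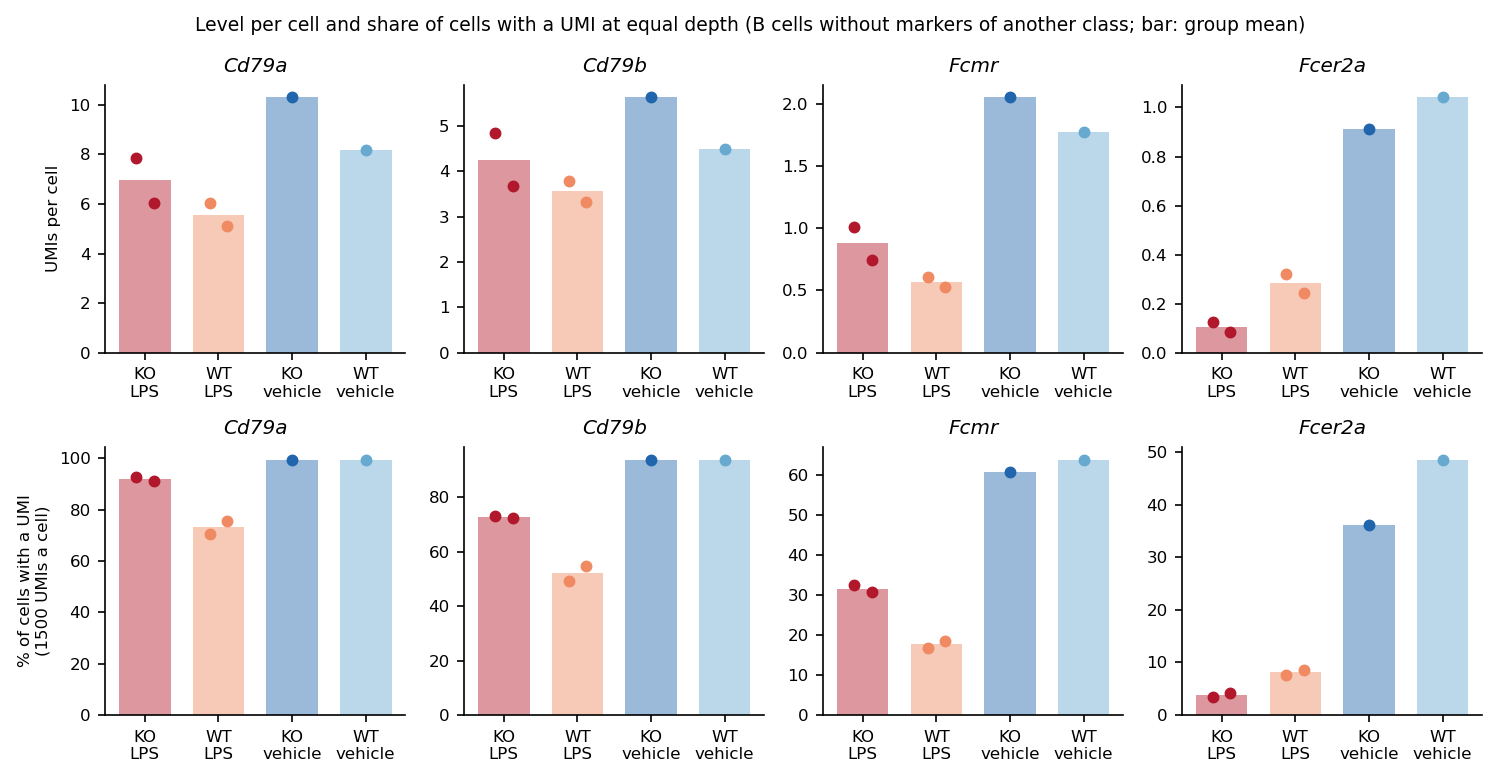
UMIs per cell (top) and percent of cells with at least 1 UMI after thinning to 1500 UMIs a cell (bottom) in unmixed B cells, for Cd79a, Cd79b, Fcmr and Fcer2a; points are libraries and bars group means. KO LPS and WT LPS libraries are closer for UMIs per cell than for the thinned share in Cd79a, Cd79b and Fcmr, and Fcer2a is lower in KO LPS than in WT LPS in both rows. Cd79a and Cd79b helped to choose these cells.

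Outside B cells, Cd22 stood above Cd79a in alveolar macrophages, and Cd72 stood above it in interstitial macrophages and NK cells. These were not the only such classes. Cd72 was also above Cd79a in T cells under both treatments. Under LPS this held for Cd72 in neutrophils, alveolar macrophages and both monocyte classes too. In the 50 conventional dendritic cells of KO vehicle Cd72 was at 14.9 CPM and Cd79a at 1.86 CPM. Cd22 was also above Cd79a in nonclassical monocytes under vehicle. Smaller excesses of Cd22 were seen elsewhere, such as 5 against 4 UMIs in WT LPS T cells and 105 against 96 in WT LPS neutrophils. Under LPS Cd79a was at most 4.40 CPM in every class of at least 30 cells other than B cells, a low mark to exceed. Other classes were assigned from marker lists after B cells were set aside, which limits Cd79a, Cd79b and Ms4a1 there. Alveolar macrophages had Cd22 at 45.5 and 42.1 CPM in KO LPS, 39.3 and 37.9 CPM in WT LPS, 56.9 CPM in KO vehicle and 52.1 CPM in WT vehicle, all 4 LPS libraries below both vehicle libraries. Cd79a in the same cells was at 1.01 to 1.41 CPM under LPS and 4.43 to 4.99 CPM under vehicle. Nonclassical monocytes had Cd22 at 2.97 and 0 CPM in KO LPS, from 1 and 0 UMIs in 46 and 33 cells, 27.1 CPM in KO vehicle and 24.5 CPM in WT vehicle, and the WT LPS libraries had fewer than 30 of these cells. In the library with 0 UMIs, a count of 3 UMIs would be 21.1 CPM, so the 0 is only a loose limit. In T cells, Cd22 was at 1.47 to 4.15 CPM under LPS and 5.48 to 7.17 CPM under vehicle. Cd79b had similar levels in some vehicle classes: 25.6 CPM in KO vehicle and 21.5 CPM in WT vehicle in nonclassical monocytes, 21.7 CPM in KO vehicle and 19.5 CPM in WT vehicle in classical monocytes, and 18.6 CPM in KO vehicle and 18.1 CPM in WT vehicle in T cells, which should lack it. In interstitial macrophages Cd79b was at 47.9 CPM in KO vehicle, from 15 UMIs in 49 cells, and 4.88 CPM in WT vehicle, and under LPS it was at most 7.26 CPM in every class of at least 30 cells. No test was made across classes.

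In all 6 libraries Cd72 was higher in interstitial macrophages than in all B cells, and in WT LPS library 1 it was also higher than in unmixed B cells. Interstitial macrophages had 137 and 227 CPM in KO LPS, 257 and 147 CPM in WT LPS, 169 CPM in KO vehicle and 146 CPM in WT vehicle, from 38 to 58 cells a library, with treatments overlapping. NK cells had Cd72 at 19.0 and 34.4 CPM in KO LPS, 32.2 and 30.5 CPM in WT LPS, 95.2 CPM in KO vehicle and 92.9 CPM in WT vehicle, so that LPS libraries were lower without overlap. In neutrophils Cd72 was at 5.74 to 6.71 CPM under LPS and 0.984 to 3.19 CPM under vehicle, and in T cells at 10.6 to 32.5 CPM under LPS and 17.3 to 18.4 CPM under vehicle. Fcmr, Cr2 and Fcer2a stayed at or under 6.60 CPM in every class of at least 30 cells other than B cells.

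**Figure D4:**
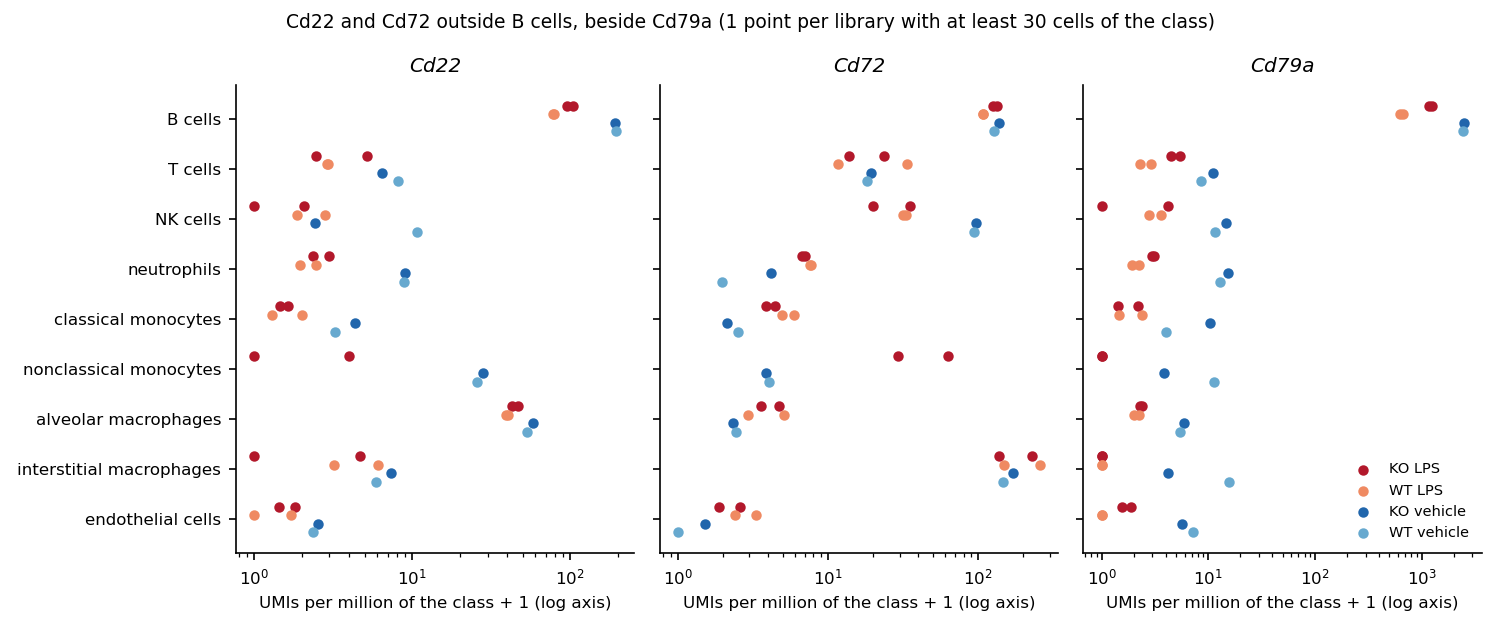
Cd22, Cd72 and Cd79a in B cells and 8 other classes, in UMIs per 1000000 of the class plus 1 on a log axis, with 1 point per library that has at least 30 cells of the class. Cd22 stands above Cd79a in alveolar macrophages, and Cd72 above Cd79a in interstitial macrophages and NK cells. Cd72 is also above Cd79a in T cells, and under LPS in neutrophils, alveolar macrophages and both monocyte classes. Cd22 is also above it in vehicle nonclassical monocytes.

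Other genes of the receptor pathway moved in both directions. Of 20 genes of receptor signalling (kinases, adaptors and other signalling proteins), 6 were higher and 12 lower under LPS, with a median log2 change of -0.87, where 33% of all genes were higher and 33.7% lower. In unmixed cells 2 were higher and 15 lower of 20, while of all 10331 genes tested there 32.7% were higher and 32.6% lower. Of the 4 most abundant, Lyn, the kinase that phosphorylates CD79, CD22 and CD72, was at 583 and 533 CPM in KO LPS, 487 and 509 CPM in WT LPS, 327 CPM in KO vehicle and 281 CPM in WT vehicle (log2 change 1.13, and 0.37 in unmixed cells). Lyn is also expressed in myeloid cells. The B cell scaffold Bank1 was at 131 and 130.4 CPM in KO LPS, 92.0 and 106 CPM in WT LPS, 375 CPM in KO vehicle and 415 CPM in WT vehicle, lower in all LPS libraries (-1.46). The PI3K adaptor Pik3ap1 rose by 1.37 and the kinase Syk did not pass (-0.07, edgeR adjusted p = 0.31). Between KO and WT under LPS, 9 of the 20 were higher and 1 lower, where 12.6% of all 13801 genes were higher and 14.5% lower.

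Of 14 inhibitory receptors and phosphatases, 5 were higher and 9 lower under LPS, with a median of -0.36, and in unmixed cells 3 were higher and 8 lower of 12 tested. The shares of all genes were 33% higher and 33.7% lower, and 32.7% and 32.6% in unmixed cells. Fcgr2b, the inhibitory IgG receptor, was higher under LPS (1.98, and 0.44 in unmixed cells) and lower in KO than in WT LPS cells (-0.68). Pirb, a receptor that myeloid cells share, had a log2 change of 2.09 in all B cells and -0.81 in unmixed cells, where it was at 22 and 17.6 CPM in KO LPS, 15.3 and 17.7 CPM in WT LPS, 40.3 CPM in KO vehicle and 29.0 CPM in WT vehicle. Its direction thus turned with the removal of mixed barcodes. Ptpn6, the phosphatase SHP-1 that CD22 and CD72 recruit, had a change of -0.18 in all B cells and -0.99 in unmixed cells. Csk, a kinase that restrains Src family kinases, fell by 0.64. Under LPS, 5 of these genes were higher and 4 lower in KO than in WT cells, against the same 12.6% and 14.5% of all genes.

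The immunoglobulin constant genes encode the constant regions of the receptor's heavy and light chains. Of 9, 3 were higher, 2 lower and 4 not past the threshold under LPS, with a median of 0.12. Over all genes 33% were higher and 33.7% lower. In unmixed cells 2 were higher and 3 lower of 8 tested, with a median of -0.31, so the median turned. There 32.7% of all genes were higher and 32.6% lower. In all B cells Ighm, the IgM heavy chain, was at 2425 and 2214 CPM in KO LPS, 1737 and 1824 CPM in WT LPS, 2474 CPM in KO vehicle and 2239.9 CPM in WT vehicle. It did not pass (0.12, edgeR adjusted p = 0.17). The light chain Igkc did not pass either (0.09, adjusted p = 0.38), nor did Iglc2 (-0.48, adjusted p = 0.094), while Iglc1 passed at 0.31 (adjusted p = 0.04) and was higher in KO than in WT LPS cells by 1.39. The membrane and secreted forms of these chains were not counted apart.

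Of 12 B cell transcription factors 4 were higher and 5 lower under LPS (median -0.02), beside 33% and 33.7% of all genes. Under LPS 7 were higher and 1 lower in KO than in WT, beside 12.6% and 14.5% of all genes. Ets1 was at 269 and 265 CPM in KO LPS, 113 and 117 CPM in WT LPS, 583 CPM in KO vehicle and 644 CPM in WT vehicle. It thus had the same order of groups as Cd79a and Fcmr, with a log2 change of -1.47 under LPS, a difference of 1.06 between KO and WT under LPS and an interaction term of 1.20 (edgeR adjusted p = 0.0018). Ebf1, a factor that drives Cd79a in early B cells, changed by -0.37 under LPS and by 0.60 between KO and WT under LPS. Pou2f2 rose by 0.73 and Klf2 did not pass (0.02), although it was at -0.62 in unmixed cells. Of 14 subset markers 4 were higher and 6 lower under LPS (median -0.06), again beside 33% and 33.7% of all genes. The chemokine receptor Ccr7 fell by 0.74, Vpreb3 rose by 0.73 and Cd9 did not pass (-0.25).

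All 14 activation genes were higher under LPS, with a median log2 change of 2.09, and 13 of 14 were in unmixed cells, with a median of 1.73. Of all genes 33% were higher in all B cells and 32.7% in unmixed cells. Cd69, an early activation receptor, was at 604 and 657 CPM in KO LPS, 490.4 and 506 CPM in WT LPS, 362 CPM in KO vehicle and 219 CPM in WT vehicle. All LPS libraries were above both vehicle libraries (1.33). Nfkbia, the NF-kB inhibitor that NF-kB itself induces, rose by 3.20 (1.90 in unmixed cells), Nfkb1 by 0.88 and Rel by 0.59. Between KO and WT under LPS 0 of 14 were higher and 10 lower (edgeR), with a median of -0.47, where 12.6% of all genes were higher and 14.5% lower. In unmixed cells 1 was higher and 8 lower, where 14.5% of genes were higher and 17% lower. The interaction term passed for 8, all negative, where 5.61% of all genes passed as negative, and for 4 in unmixed cells, where 7.79% did.

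**Figure D5:**
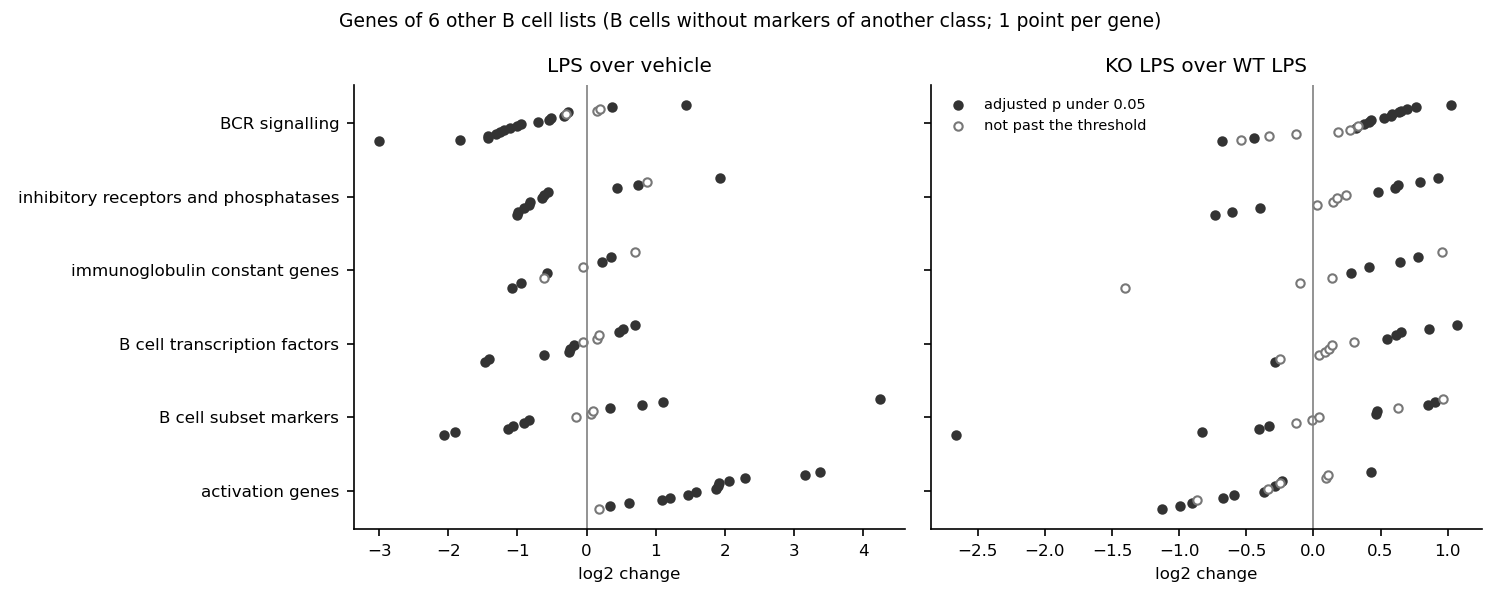
Log2 change of each gene of 6 other B cell lists, LPS over vehicle (left) and KO LPS over WT LPS (right), in B cells without markers of another class; filled points passed an adjusted p of 0.05. Activation genes lie to the right under LPS and mostly to the left for KO over WT, and most receptor signalling genes lie the other way.

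The pattern over the 6 libraries was also compared with those of 3086 genes, the 8 members left out, that averaged at least 50 CPM, as the root mean square difference of centred log2 CPM, where a smaller value is a closer pattern. Cd79a was closest to Apc (0.0575) and Map3k1 (0.0587), Cd79b to Tnrc6b (0.0670) and Bnip3l (0.0683), and Fcmr to H2-Oa (0.0533) and Ralgps2 (0.0619), a gene that also helped choose the second set of cells. Ms4a1 was closest to Stk24 (0.0446) and Mpc2 (0.0560), Cd22 to Pnisr (0.0324) and Dock11 (0.05), and Cd72 to Kdm1a (0.0253) and Etfa (0.0257). For Cr2 and Fcer2a the values were larger: the nearest of these genes were Cd55 (0.621) and Lbh (0.702) for Cr2 and Sipa1 (0.594) and AC149090.1 (0.603) for Fcer2a. Among the members, Cd79a and Cd79b were the closest pair (0.0839) and Cr2 and Fcer2a were closer to each other (0.436) than to any other member. All these values come from cells of the members' rule, which Cd79a, Cd79b and Ms4a1 chose by their sum. The closeness of Cd79a and Cd79b is thus not independent of that choice. The libraries also share group and depth, so these values are a description.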

How the data were processed

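Lung CD45+ cells of 6 libraries were profiled with a 10x Genomics droplet method, per the labels. The deposited matrices hold raw UMI counts per gene and barcode. The submitters' processing notes name Cell Ranger 6.1.0, mm10, Seurat 4.1.0 and R 4.1.3. No source used here names the annotation release.

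The members, gene lists and comparisons were chosen with earlier results of these data known. Of 64428 barcodes, 61736 had at least 200 genes and at most 10% mitochondrial UMIs. UMIs were summed per library over B cells and tested across all genes with edgeR 4.0.16 (quasi-likelihood test, TMM, filterByExpr, Benjamini-Hochberg at 0.05, R 4.3.3), with a coefficient for each group, which leaves 2 residual degrees of freedom. Cd79a, Cd79b and Ms4a1 were tested in cells selected without them. DESeq2 1.42.0 was an alternative. Mixed barcodes were removed in the unmixed set, where a barcode had fewer than 2 detected markers of any other class (S100a8, S100a9 and Apoe not counted) and at most 2 plasma cell UMIs. Scrublet (scanpy 1.11.5) called 766, 0, 0, 0, 0 and 1923 cells by its own threshold, so that the top scores were removed at the expected rate instead, as an alternative. Other classes needed at least 3 detected markers and a lead of 2 over the next class. From each other list the 4 most abundant genes, or those of them reported here, are named, whatever their change. The test for LPS against vehicle was checked on simulated counts, with 200 of 13801 genes changed and the same spread for every gene. It recovered 80% of 2-fold and 100% of 4-fold changes. Of its calls 6.81% were false, a share above the 0.05 set. Intervals cover counting error only. Some genes are not reported here.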

Additional observations from a re-analysis of the deposited data

Results flagged for a closer look

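The LPS response in B cells differed between the genotypes for 3 of the 8 genes, by a test of the difference itself (edgeR's quasi-likelihood interaction term). The change in KO minus the change in WT was 0.9 on the log2 scale for Cd79a, where the log2 change under LPS was -0.95 in KO and -1.85 in WT. It was 0.87 for Cd79b, with changes of -0.82 in KO and -1.69 in WT. It was 1.08 for Fcmr, with changes of -1.42 in KO and -2.50 in WT. Each rests on 1 vehicle library per genotype, and those libraries differ in sex marks. Over all genes the difference passed for 9.61% in the cells of the members' rule and for 7.68% in the cells selected without members. The calls for Cd79a and Cd79b ended in cells thinned to 1500 UMIs (0.54 and 0.49), that for Cd79b without KO LPS library 1 (0.93) and that for Fcmr without WT LPS library 1 (0.99). On a scale of UMIs per B cell all 3 ended (0.12, 0.10 and 0.31).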

How the results depend on the processing

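Over the alternatives, 619 of 746 member values kept their direction and their side of the threshold, 62 no longer passed, 21 newly passed and 43 turned. The falls of Cd79a, Cr2, Fcer2a and Fcmr under LPS, averaged over genotypes, kept their call under every alternative run. The cause of the changes below was not tested. The same-numbered LPS libraries did not deviate together (r = 0.0205 over 7883 genes), so the numbers were not taken to pair them; in a fit of the 4 LPS libraries alone with a replicate block, 4029 of 11988 genes differed between KO and WT, against 3745 of 13801 in the fit of all 6 without it, so that libraries and block changed together, and no member's call changed.

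With DESeq2, 3516 genes passed for LPS within KO, 5273 within WT, 1873 for KO against WT under LPS and 648 for the difference in response, against 6412, 8334, 3745 and 1326 in edgeR. Thinned cells gave 5081 for LPS over both genotypes (9200 in all cells), 3443, 3956, 594 and 106 in that order. The difference in response passed for 1994 genes without a filter on low counts, 640 in cells with at least 6 gate UMIs and 569 without high doublet scores. Leaving out 1 library gave 1374 to 4335 genes for KO against WT and 26 to 2788 for the difference, the lowest of each without WT LPS library 1. The remaining counts were of alternatives chosen after seeing the data. Scaled to the number of B cells, 4394, 1156, 3702, 90 and 23 genes passed, for LPS over both genotypes, within KO, within WT, KO against WT and the difference. On that scale in unmixed cells there were 4337, 1704, 4031, 693 and 48, and with DESeq2 in unmixed cells 4029, 2067, 3234, 1269 and 376.

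The values that turned were mostly of Cd72, Cr2 and Ms4a1 near 0. For Cd72 the LPS change was -0.17, -0.086 within KO and -0.26 within WT with library totals only, and in cells selected without members -0.019, and -0.076 within WT. Its difference in response was -0.033 with DESeq2, -0.017 without a count filter, -0.11 with at least 6 UMIs, -0.28 in thinned cells, -0.094 in unmixed cells, -0.11 there with DESeq2 and -0.084 to 0.069 with 1 library left out. Its KO against WT value was -0.29 in thinned cells, -0.042 in unmixed cells and -0.049 there with DESeq2. For Cr2, KO against WT was 0.88 in thinned cells, 0.13 without high doublet scores, 0.27 in unmixed cells, 0.26 there with DESeq2 and -0.59 to 0.34 with 1 library left out. For Ms4a1 the LPS change was 0.072 in thinned cells, 0.20 within KO, and 0.0030 within KO in unmixed cells with DESeq2. The difference for Fcer2a was 0.054 with library totals only and 0.18 without Y-marked cells. Scaled to the number of B cells, Ms4a1 was at 0.11 within WT, KO against WT was -0.23 for Cd22 and -0.34 for Cd72, and the difference was -0.42 for Ms4a1, -0.37 for Cr2, -0.53 for Cd22 and -0.77 for Cd72. On that scale in unmixed cells, the LPS change of Ms4a1 was 0.22, 0.0022 within KO and 0.45 within WT, and that of Cd22 within WT 0.090; KO against WT was -0.19 for Cd22 and -0.42 for Cd72, and the difference was -0.44 for Ms4a1, -0.47 for Cd22 and -0.87 for Cd72. The difference for Cr2 was 0.86 with DESeq2 in unmixed cells, which gave it no adjusted p.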
